A study of Nothobranchius furzeri with 20 samples.

Results

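A set of 270 gene IDs, out of 26739 in the count table, was nearly silent in skin of male turquoise killifish (Nothobranchius furzeri, the inbred, short-lived GRZ strain) at 5 weeks of age and abundant in some skin libraries of later ages. The members were chosen by their own read counts. With CPM as the count of an ID per 1000000 counts of its library, it had to be under 1 CPM in all 5 libraries of 5 weeks, at 10 CPM or more in at least 2 libraries of 14 weeks, and under 1 CPM in at least 1 library of 10 weeks. The study sequenced RNA of skin from fish of 5, 7, 10 and 14 weeks, with 5 libraries at each age and male GRZ fish throughout. No treatment, mutation or transgene is given in the labels. It is not stated that each library is a different fish, so the spread between libraries may be partly technical.

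Fish skin is a living epidermis of keratinocytes and mucus-secreting cells over a dermis that holds scales, pigment cells, nerves and vessels, and it lies on body muscle. RNA taken from the whole tissue mixes all of these. A gene that is silent in most cells of the skin can therefore become visible when a few strongly expressing cells are present or when many cells switch it on, and in bulk RNA more cells of a type and more RNA per cell cannot be told apart. The turquoise killifish of the GRZ strain grows, matures and ages within months, which is why ages a few weeks apart are compared. None of the 26739 IDs was matched to a name in the RefSeq gene table, and none is named in the files. The members are therefore described by their levels, without symbols, functions or sequences, and the labelled tissue could not be checked against marker genes.

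Except for 2 genes described below, the 270 members were high in some libraries of each later age and low in others of that age. Of the 15 libraries later than 5 weeks, 6 expressed them and 9 did not, and the 6 were spread evenly, with 2 of 5 at 7 weeks, 2 of 5 at 10 weeks and 2 of 5 at 14 weeks. The label of genes that are on later thus holds for these 6 libraries and not for an age as a whole. The rule set part of this split, as it asked for all libraries of 5 weeks and at least 1 of 10 weeks to be low and for only 2 of 14 weeks to be high. A library is counted as expressing here when at least 135 of the 270 members reached 1 CPM, a description set after the levels were seen. In the 6 libraries 200 to 270 members reached 1 CPM, and in the other 14 libraries 0 to 26 did. No library lay between 26 and 200.

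**Figure D1:**
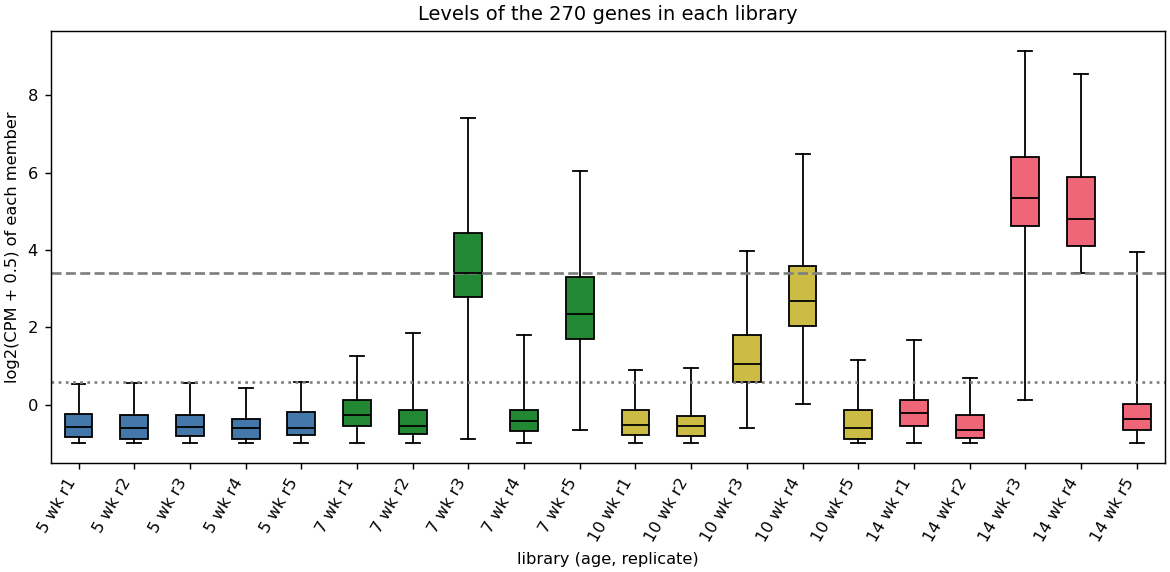
Box plot of log2(CPM + 0.5) of the 270 members (y axis) in each of the 20 libraries (x axis), coloured by age; boxes span the quartiles, the line is the median, whiskers reach the lowest and highest member, and the dotted and dashed lines mark 1 and 10 CPM. The boxes of 7 weeks replicates 3 and 5, 10 weeks replicates 3 and 4 and 14 weeks replicates 3 and 4 stand above those of the other 14 libraries.

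Library totals were 24747312 to 35137022 counts at 5 weeks, 22069927 to 29724151 at 7 weeks, 21616172 to 32418365 at 10 weeks and 21581757 to 33838693 at 14 weeks. Depth did not separate the libraries that expressed the members from the rest, with totals of 21616172 to 32418365 in the 6 and 21581757 to 35137022 in the other 14. The 6 libraries also mostly held more detected genes, members included, with 16532 to 17909 IDs at 1 CPM or more against 15266 to 16693 in the others. The ranges overlapped, as 10 weeks replicate 3 had 16532 IDs and 14 weeks replicate 5, outside the 6, had 16693. The part of this wider difference in the members' levels was not tested. No batch or preparation day is given in the labels.

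The steps of the rule show what bound the set. Under 1 CPM in all libraries of 5 weeks were 9470 IDs, of which 3757 had no count in any library and 5713 had at least 1. Of these, 273 reached 10 CPM in at least 2 libraries of 14 weeks. The condition on 10 weeks dropped only 3 more, whose lowest libraries of 10 weeks stood at 1.24, 1.13 and 1.61 CPM. All 3 were highest in 14 weeks replicate 3, at 89.9, 80.5 and 27.5 CPM. The thresholds cut through a continuous range. The members' highest library of 5 weeks had a median of 0.307 CPM and reached 0.997 CPM, with 20 members at 0.8 CPM or more, and 22 further IDs that met the other conditions stood between 1 and 1.2 CPM. The members' second-highest library of 14 weeks ran from 10.1 to 373 CPM with a median of 26.6 CPM, with 26 members under 12 CPM, and 31 further IDs stood between 8 and 10 CPM.

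Summed over the 270 members, the level at 5 weeks was 62.2, 57.7, 59.3, 53.1 and 64.7 CPM in replicates 1 to 5. At 7 weeks the sum was 112 CPM in replicate 1, 80.9 in replicate 2, 4879.9 in replicate 3, 95 in replicate 4 and 1925 in replicate 5. Replicates 3 and 5 of 7 weeks thus stood far above the other 3 libraries of their age, and the rule read none of the 7 weeks libraries. At 10 weeks the sum was 72.0 CPM in replicate 1, 62.6 in replicate 2, 624 in replicate 3, 2368 in replicate 4 and 69.51 in replicate 5. At 14 weeks it was 116 CPM in replicate 1, 60.3 in replicate 2, 17872 in replicate 3, 11994 in replicate 4 and 136 in replicate 5. The lowest libraries of 10 and 14 weeks lay within the range of 5 weeks. All 5 libraries of 7 weeks stood above all 5 of 5 weeks, from 80.9 CPM upward, but the rule capped each member at 5 weeks and not at 7 weeks. Replicate 3 of 14 weeks devoted 1.79% of its counts to the members and replicate 4 devoted 1.2%, against 0.00531% to 0.00647% in the libraries of 5 weeks.

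The mean sum at 5 weeks was 59.4 ± 4.46 CPM (SD, n = 5). It came to 1419 ± 2091 CPM at 7 weeks and 639 ± 996 CPM at 10 weeks. At 14 weeks it was 6036 ± 8384 CPM, each an SD over 5 libraries. At each later age the SD exceeded the mean. No library lay near its group's mean at 14 weeks, where 3 libraries were at 136 CPM or less and 2 at 11994 CPM or more. Scaling by TMM factors, which correct for differing make-up of the libraries' counts, moved all levels of a library by −0.39 to 0.43 on the log2 scale. The shift was −0.39 to −0.063 in the 6 expressing libraries and −0.10 to 0.43 in the other 14, so it lowered all 6. The sums were then 14285 and 9144 CPM in 14 weeks replicates 3 and 4, and 55.4 to 71.5 CPM at 5 weeks, with the same 6 libraries high.

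The rule used no library of 7 weeks, so all levels there were free to vary. At 10 and 14 weeks it asked only for at least 1 low and at least 2 high libraries. In 7 weeks replicate 3, 268 of the 270 members (99.3%) were at 1 CPM or more, and the same number were so in 7 weeks replicate 5. In replicates 1, 2 and 4 of that age 20, 11 and 12 members reached 1 CPM. For all 5713 IDs with a count and under 1 CPM in every 5 weeks library, the share at 1 CPM or more was 15.3% in replicate 3 and 8.33% in replicate 5, and 1.94%, 3.1% and 3.97% in replicates 1, 2 and 4. The 5713 IDs include the 270 members, which made up 268 of the 872 IDs at that level in replicate 3. In replicate 5 they made up 268 of 476. The members were required to be high at 14 weeks and the other IDs were not. The shares are therefore given side by side without a test. At 10 weeks, where the rule asked for only 1 low library, 200 members reached 1 CPM in replicate 3 and 268 in replicate 4, against 7.72% and 16.3% of the 5713 IDs. The other 3 libraries of 10 weeks had 6, 3 and 4 members at that level, or 2.22%, 1.11% and 1.48% of the members. Of the 5713 IDs 1.72%, 1.45% and 3.4% were at that level there.

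Almost all members behaved as a single block. Average linkage on the correlation of log2(CPM + 0.5) across the 20 libraries put 268 of the 270 into 1 group and left 2 apart. The 268 were at 10 CPM or more in exactly the same pair of 14 weeks libraries, replicates 3 and 4, while the 2 others were so in replicates 4 and 5. Between genes of the main group Pearson's r had a median of 0.98 over the 20 libraries, which grouping by r favours and which a split into high and low libraries alone would raise. Over the 6 expressing libraries only, where every gene had reads, the median was also 0.98, with 5% of gene pairs under 0.91. In 10 weeks replicate 3, the weakest of these, 200 of the 268 genes were at 1 CPM or more. The rule asked for high levels in 2 libraries of 14 weeks, which are the strongest of the 6. That shared range of strengths and the grouping by r would both raise this median. Over the other 14 libraries the median r was 0.19, at levels that rest on few reads per gene.

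**Figure D2:**
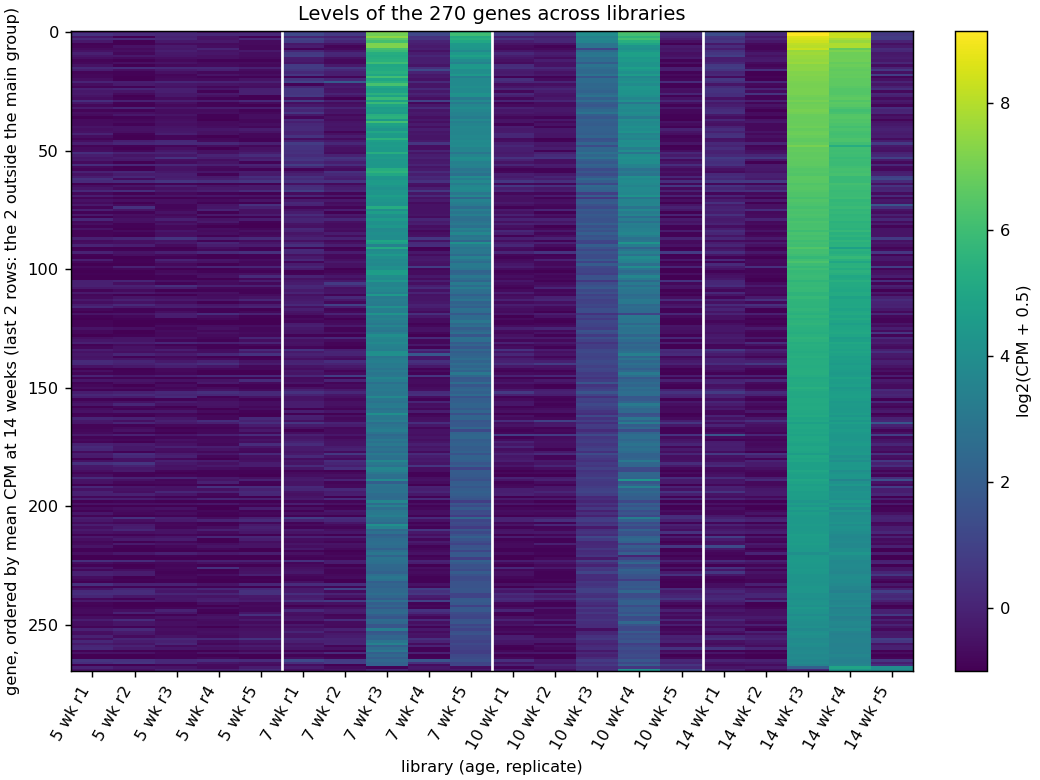
Heat map of log2(CPM + 0.5), shown by colour, for the 270 members (rows, ordered by mean CPM at 14 weeks, with the 2 genes outside the main group at the bottom) in the 20 libraries (columns, by age and replicate). Bright columns are 7 weeks replicates 3 and 5, 10 weeks replicates 3 and 4 and 14 weeks replicates 3 and 4, and the bottom 2 rows are bright in 14 weeks replicates 4 and 5.

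For 241 of the 268 genes the 6 libraries were the 6 highest of all 20. Of the 19192 IDs tested, these 241 among them, 3.42% held this pattern. The 6 libraries were picked by the members' own levels, and the rule held 5 weeks low and 2 libraries of 14 weeks high. The pattern is thus largely built in, and the shares are no test. The other genes of the main group all fell short in 10 weeks replicate 3, the weakest of the 6. In it 241 genes lay above all of the other 14 libraries. In 7 weeks replicate 5 this was so for 267 genes, and in the other 4 expressing libraries for all 268. The rule's condition on 14 weeks largely built in the counts of replicates 3 and 4 of that age. The share of all tested IDs was not computed for single libraries, so nothing is read from these counts.

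The 6 libraries differed in the strength of the block by a factor that was similar for most genes. Taking each gene's level in 14 weeks replicate 3 as 100%, the median gene stood at 67.7% in 14 weeks replicate 4. It stood at 23.6% in 7 weeks replicate 3, 13.3% in 10 weeks replicate 4, 11.1% in 7 weeks replicate 5 and 3.72% in 10 weeks replicate 3. In the 5 weeks libraries it stood at 0.244% to 0.311%, and in the remaining libraries at 0.269% to 0.687%. The middle 90% of genes spanned 52.5% to 86.6% in 14 weeks replicate 4 and 2.11% to 6.34% in 10 weeks replicate 3. Age did not order the strengths among these 6 libraries, as the third strongest library was one of 7 weeks and the weakest one of 10 weeks. The rule read levels at 14 and 10 weeks and none at 7 weeks. The order is therefore partly set by the rule and is no test of age.

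Gene by gene the order of strengths was largely the same, which is a description only, as the order was taken from these same genes. The genes were also grouped by r over these libraries, and shares over all tested IDs were not computed. Of the 268 genes, 262 were higher in 14 weeks replicate 3 than in replicate 4, and 265 were higher in the latter than in 7 weeks replicate 3. A further 257 were higher in 7 weeks replicate 3 than in 10 weeks replicate 4, and all 268 were higher in 7 weeks replicate 5 than in 10 weeks replicate 3. The least separated neighbours were 10 weeks replicate 4 and 7 weeks replicate 5, where 211 genes were higher in the former. The full order of all 6 libraries was kept by 193 genes.

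**Figure D3:**
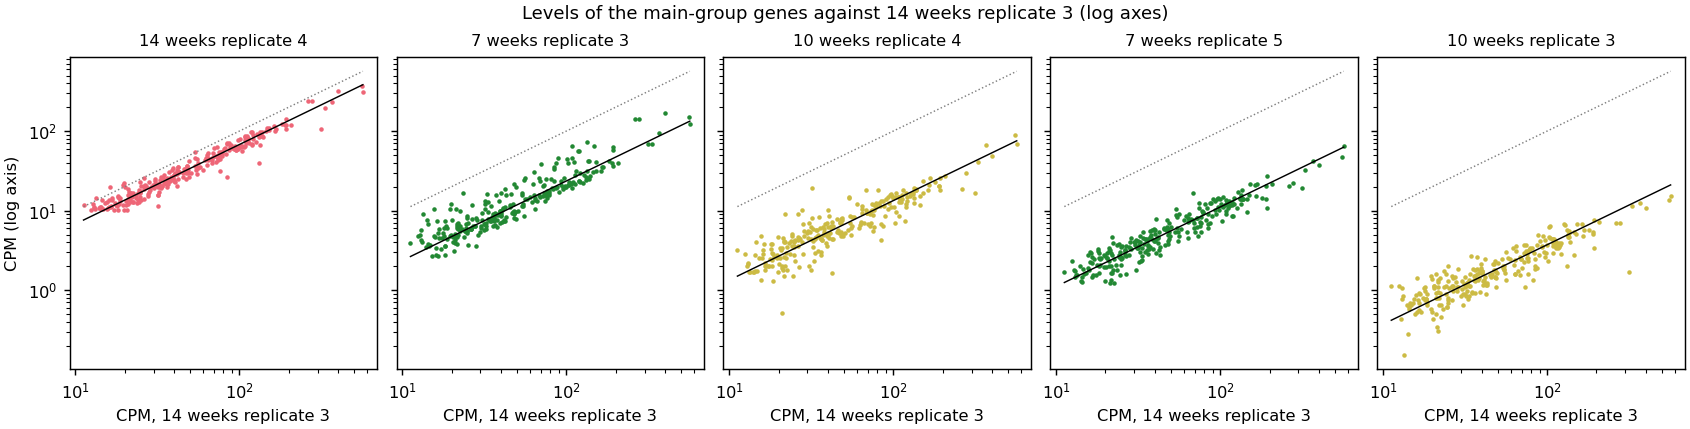
Scatter plots of CPM of the 268 main-group genes in each of 5 libraries (y axes, log scale) against CPM in 14 weeks replicate 3 (x axes, log scale); each point is a gene, the solid line is the median ratio and the dotted line is equality. Points follow lines parallel to equality at 67.7%, 23.6%, 13.3%, 11.1% and 3.72% of the level in 14 weeks replicate 3.

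The proportions of the genes to each other were compared between all 15 pairs of the 6 libraries, as a correlation across genes, which are not independent replicates. Pearson's r of log2(CPM + 0.5) across the 268 genes ranged from 0.80 to 0.97 with a median of 0.91. It was highest between 14 weeks replicates 3 and 4, at 0.97. There 266 of the 268 genes (99.3%) had a ratio within 2-fold of the median ratio of 1.48. The pair of 7 weeks replicate 3 and 10 weeks replicate 3 was lowest, with r = 0.80 and 80.6% of genes within 2-fold of their median ratio of 6.20. Libraries of different ages could be closer than libraries of 1 age. The r was 0.93 between 10 weeks replicate 4 and 7 weeks replicate 5, 0.83 between the pair of 7 weeks and 0.88 between the pair of 10 weeks.

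The spread of proportions between libraries was also set beside counting error, which is only the least spread that separate libraries can have. The SD across genes of the log2 ratio was 0.26 between 14 weeks replicates 3 and 4, where counting error alone gives 0.073. Between 14 weeks replicate 3 and 10 weeks replicate 3 it was 0.52, where counting error gives 0.23. Between the pair of 7 weeks it was 0.71 against 0.17.

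Some genes were relatively strong in 7 weeks replicate 3. In 35 of the 268 genes the level there was at least 40% of that in 14 weeks replicate 3, a limit chosen after the values were seen, with a median of 47.3% and a highest value of 71.5%. The median of the other 233 genes was 22.6%. The same 35 genes had a median of 79.3% in 14 weeks replicate 4, against 66.6% for the 233. They stood lower in the other 3 libraries, at 10.6% against 13.9% in 10 weeks replicate 4, 8.06% against 11.5% in 7 weeks replicate 5 and 2.87% against 3.79% in 10 weeks replicate 3. Both sets of genes overlapped in each of these libraries, and no test was made because the 35 were picked on the same libraries and all percentages share 14 weeks replicate 3.

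No gene dominated the block. The largest single share of the members' summed CPM was 2.42% to 3.76% in the 6 libraries, and the 10 most abundant members took 15.9% to 22.5%. It took 45 to 56 members to reach 50% of the sum. Of the 10 most abundant members in 14 weeks replicate 3, 7 or 8 were also among the 10 most abundant in each of the other 5 libraries.

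Nfu_g_1_002463 had the highest mean CPM at 14 weeks, with 1.51, 0.785, 556, 373 and 1.44 CPM in replicates 1 to 5. Its 5 weeks libraries ranged from 0.194 to 0.491 CPM, with 0.312 ± 0.110 (SD, n = 5). At 7 weeks its level was 1.16, 0.861, 151, 1.98 and 47.1 CPM, and at 10 weeks 1.05, 0.770, 13.6, 89.0 and 0.565 CPM. The 6 libraries of the block were high for this gene, at 13.6 CPM or more, and the other 14 were at 1.98 CPM or less, so every later age held both high and low libraries. Its fitted log2 fold change at 14 against 5 weeks was 8.77 (SE 2.27; adjusted p = 0.0618, edgeR), a value that the selection of the gene had to make large.

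Nfu_g_1_019046 was second, with 2.13, 0.600, 566, 310 and 1.02 CPM in replicates 1 to 5 of 14 weeks. At 7 weeks its level was 1.89, 1.13, 121, 1.73 and 65.6 CPM and at 10 weeks 1.35, 0.875, 15.1, 68.1 and 0.767 CPM. At 5 weeks it stood at 0.671 ± 0.125 CPM (SD, n = 5), with 0.583 CPM in its lowest library and 0.882 in its highest, and its lowest 14 weeks library lay within that range. Its share of the members' sum was 3.17% in 14 weeks replicate 3 and 3.41% in 7 weeks replicate 5. The log2 fold change at 14 against 5 weeks was 7.60 (SE 2.05; adjusted p = 0.0618, edgeR).

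**Figure D4:**
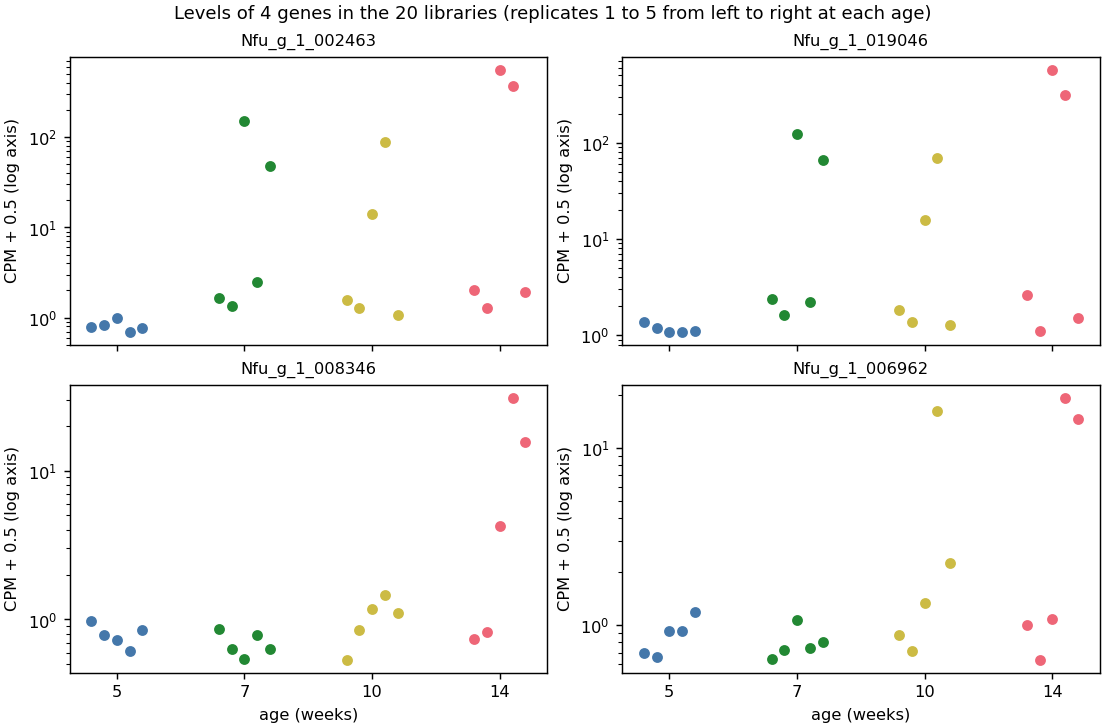
Level (CPM + 0.5, log scale, y axes) of 4 members at 5, 7, 10 and 14 weeks (x axes); each point is a library, replicates 1 to 5 from left to right within an age. Nfu_g_1_002463 and Nfu_g_1_019046 are high in 2 libraries each of 7, 10 and 14 weeks, while Nfu_g_1_008346 and Nfu_g_1_006962 stay under 1 CPM at 7 weeks.

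The 2 members outside the main group were named after their values were seen. Nfu_g_1_008346 had 0.236, 0.323, 3.73, 30.2 and 15.01 CPM in replicates 1 to 5 of 14 weeks. It was under 1 CPM in all libraries of 7 and 10 weeks, with at most 0.363 CPM at 7 weeks and 0.971 CPM at 10 weeks. High levels of this gene were thus confined, among these 20 libraries, to 14 weeks replicates 4 and 5, with replicate 3 between. Nfu_g_1_006962 had 0.502, 0.138, 0.588, 18.6 and 14.1 CPM in replicates 1 to 5 of 14 weeks and 15.6 CPM in 10 weeks replicate 4, with at most 1.74 CPM in any other library. It was thus low in 14 weeks replicate 3, the library in which the main group was strongest. The r of these 2 genes with the mean profile of the main group was 0.50 and 0.43 over the 20 libraries, and 0.79 with each other. More than 0.9 in r was reached with Nfu_g_1_008346 by 18 other IDs and with Nfu_g_1_006962 by 131, of 19138 at 1 CPM or more in any library.

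Levels of different members were compared per length, with gene lengths recovered from the deposited RPKM values. The members had a median length of 2154 bases (quartiles 1337 and 3355), close to the median of 2367 bases over the 22982 IDs with a length. It was 3229 bases for the 11665 IDs that also reached 10 CPM in at least 2 libraries of 14 weeks and were no members. In 14 weeks replicate 3 the members ran from 0.443 to 398 RPKM with a median of 21.52 RPKM, at the library's own depth. Per length, Nfu_g_1_002463 (9783 bases) ranked 43rd there at 56.8 RPKM and Nfu_g_1_019046 (5433 bases) 21st at 104 RPKM. Both thus ranked lower per length than by CPM.

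The silence at 5 weeks was deep for most members without being complete. The 5 libraries of that age together held a median of 26 reads per member, and 1 member had no read in any of them. Between 19 and 56 members had no read in a single 5 weeks library. Pooled over the 5 libraries of 5 weeks, Spearman's rho with 14 weeks replicate 3 across the 268 genes was 0.030, where the rule held every level under 1 CPM. It was 0.35, 0.16 and 0.26 over the 3 low libraries each of 7, 10 and 14 weeks, with a median of 15.5 to 24 pooled reads per gene. At so few reads no order of the genes is read from these values. The highest levels among the low libraries were 26 members at 1 CPM or more in 14 weeks replicate 5 and 20 in 7 weeks replicate 1.

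The main group was part of a larger set of IDs with a like profile. Of 19139 IDs at 1 CPM or more in at least 1 library, 1154 had an r over 0.9 with the mean profile of the main group across the 20 libraries, the 268 among them. Of the other 886, 568 were at 1 CPM or more in a library of 5 weeks, 355 fell short of 10 CPM in 2 libraries of 14 weeks, and 428 were at 1 CPM or more in every library of 10 weeks, with overlap between these reasons. The 886 summed to 4029.7 to 5788 CPM in the 14 low libraries and to 58933 CPM in 14 weeks replicate 3. Their excess over the mean of the low libraries, relative to that in 14 weeks replicate 3, was 61.9% in 14 weeks replicate 4, 24.7% in 7 weeks replicate 3, 15.1% in 10 weeks replicate 4, 10.98% in 7 weeks replicate 5 and 5.21% in 10 weeks replicate 3. The strengths of the main group are another measure, the median gene's level with no subtraction of the low libraries. They were 67.7%, 23.6%, 13.3%, 11.1% and 3.72% in the same libraries in that order. Choosing by r favours a likeness of these values. Members and these 886 IDs together took 7.68% of the counts of 14 weeks replicate 3, against 0.408% to 0.588% in the low libraries. No ID had an r under −0.9, and 16 had one under −0.8.

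The age contrasts were fitted across all 19192 IDs with enough counts, and the members, all 270 of which were tested, were counted among the calls. Since the rule chose them on libraries of 5, 10 and 14 weeks, these counts describe the selection and nothing is read from them. The comparisons with 5 weeks share its 5 libraries. In edgeR's quasi-likelihood F-test over the 4 ages 210 members were called at an adjusted p under 0.05, where 26.1% of all tested IDs were. That count was 15, 16, 26, 58 and 39 without 5 weeks replicates 1 to 5 in turn. It was 125, 107 and 88 without 7 weeks replicates 1, 2 and 4. Without 10 weeks replicates 1, 2, 3 and 5 it was 101, 72, 45 and 86. Without 14 weeks replicates 3 and 4 it was 2 and 9. Over all tested IDs these fits called 3082 to 4746, against 5000 with all libraries. Without 7 weeks replicates 3 and 5 the count of members was 227 and 152, and without 10 weeks replicate 4 it was 264. It was 262, 262 and 251 without 14 weeks replicates 1, 2 and 5. Over all tested IDs these last fits called 4468 to 6931. Between 14 and 5 weeks edgeR called 0 members, with a smallest adjusted p of 0.0618, where 0.0104% of tested IDs were called. All 270 nevertheless had an unadjusted p under 0.05, as had 4517 of the 19192 tested IDs. The median log2 fold change of the members was 6.32 there, 4.31 at 7 against 5 weeks and 3.35 at 10 against 5 weeks. Of the 270, edgeR called 0 between 7 and 5 weeks, where 1.38% of tested IDs were called. It called 0 members between 10 and 5 weeks (6.61% of tested IDs) and 0 between 14 and 10 weeks (0%). Members at an unadjusted p under 0.05 numbered 222, 104 and 130 in these comparisons in turn. Of all tested IDs 3346, 4829 and 3598 were.

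Other tools gave other counts, and the cause was not tested. DESeq2 called 270 members between 14 and 5 weeks, all higher at 14 weeks, where 11.7% of tested IDs were called, 154 for 7 against 5 weeks (6% called), 75 for 10 against 5 weeks (13.4%) and 2 for 14 against 10 weeks (1.41%). It called 261 over the 4 ages (39.4%). limma voom, which averages log values, called 0 members in each of the 5 tests. It had 41 members at an unadjusted p under 0.05 between 14 and 5 weeks, where 3646 of the 19192 tested IDs were. In each of the other tests it had 1 or 2 members at that level, where 2408 to 6850 of the tested IDs were. Of all tested IDs it called 20.7% over the 4 ages, 0% for 14 against 5 weeks, 6.67% for 10 against 5, 1.02% for 7 against 5 and 0% for 14 against 10. Its median log2 fold change of the members between 14 and 5 weeks was 3.81. Without 14 weeks replicate 1, 2 or 5, each a library with the block off, edgeR called 252, 264 and 242 members between 14 and 5 weeks. In these fits it called 1498 of 19401, 2141 of 19402 and 1284 of 19376 tested IDs, against 2 of 19192 with all libraries. The set itself rests on the pair of 14 weeks libraries, as the rule finds 2 members without replicate 3 and 0 without replicate 4. These counts were fixed in advance, since the rule asks for 2 such libraries and each member reached 10 CPM in exactly 2. Without 5 weeks replicates 4 and 5, a setting chosen after the data were seen, the rule finds 481.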

How the data were processed

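The authors deposited raw counts per gene ID and RPKM values (a level per gene length and depth) for 20 skin libraries prepared with a TruSeq RNA kit, per the labels. The submitters' processing notes list featureCounts 1.4.6-p4, STAR 2.4.1d and CASAVA 1.8.2. Build, annotation and strand setting were not given in the sources used, so overlapping, antisense and near-identical genes may share reads.

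CPM was computed from the deposited counts with each library's total. The members and lists were chosen with earlier results of these data known. The rule for named genes took the 2 members with the highest mean CPM at 14 weeks. Replicates were numbered in accession order and pair no libraries. No library repeats another, since the closest pair differed with a chi-square of 48.4 per degree of freedom, far over counting noise.

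edgeR 4.0.16 (R 4.3.3) used filterByExpr, TMM factors and a quasi-likelihood fit of 4 age means over all 20 libraries, with Benjamini-Hochberg adjustment over 19192 IDs at 0.05. The SE given with an edgeR log2 fold change was derived, as the size of the fold change over the square root of its F statistic. DESeq2 1.42.0 and limma voom 3.58.1 were alternatives, as were RLE factors, no filter and leaving out each library. The steps were tested on simulated data.

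The deposited RPKM values did not use each library's own total. A series of 25 depths repeating down the rows gave 99.5% of the values above 0 within 0.1% or 0.0006 RPKM. Lengths were recovered with it for 22982 IDs, and RPKM was recomputed with own totals. Levels rest on counts of 21581757 to 35137022 per library.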

Additional observations from a re-analysis of the deposited data

Results flagged for a closer look

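Among 5 libraries of an age, 10 weeks replicate 4 stood far above the others in 4 of 20 checks of the highest and lowest library, with a gap to the next library of more than 0.71 of the group's range. Chance flags about 1 in 20 groups of unselected, normally distributed values. The members were chosen on levels of 5, 10 and 14 weeks and are very uneven within the later ages. That rate therefore does not apply to them, and the number of flags is not set against it. The 4 flags are also not independent, as the genes vary together and the summed level contains them. The summed level of the members in that library was 2368 CPM, with the next at 624 CPM. Nfu_g_1_002463 stood at 89.0 CPM, Nfu_g_1_019046 at 68.1 CPM and Nfu_g_1_006962 at 15.6 CPM. No library of 5, 7 or 14 weeks was set apart by this measure. It reads only the gap between the highest or lowest library and its neighbour, so 2 high libraries mask each other. At 14 weeks the summed level was 17872 and 11994 CPM in replicates 3 and 4, with the others at 136 CPM or less. At 7 weeks it was 4879.9 and 1925 CPM in replicates 3 and 5, with the others at most 112 CPM.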

How the results depend on the processing

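The 270 members numbered 229 with TMM-scaled CPM, 380 and 180 with an upper threshold of 5 and 20 CPM and 183 and 373 with a lower one of 0.5 and 2 CPM. Leaving out 1 library gave 0 to 287, where the 0, without 14 weeks replicate 4, was fixed by the rule. Leaving out both 5 weeks replicates 4 and 5, which was added with the data in view, gave 481. At least 135 members reached 10 CPM in 3 libraries, with 2 libraries after TMM scaling, 4 libraries at 5 CPM and 6 at 1 CPM. The median r of proportions between those 3 libraries, over all 270 members, was 0.92, with 0.90 to 0.93 on leaving out 1 of them and 0.88 over the 6 libraries, a setting chosen after the data were seen. The number of co-expression groups was 2, or 3 at a height of 0.2. The cause of these shifts was not tested.

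The members called over the 4 ages were 210 in edgeR, where 26.1% of all tested IDs were called, and 0 in limma voom (20.7%). In edgeR they were 2 to 264 on leaving out 1 library, with 14 of 20 libraries moving the count by more than 1.5 times. Between 14 and 5 weeks edgeR called 0 members (0.0104% of tested IDs) and DESeq2 270 (11.7%). Without 1 library edgeR called 0 to 264 members there. On leaving out 1 library edgeR called 3082 to 6931 of all tested IDs over the 4 ages. Between 14 and 5 weeks it called 0 to 2141 of them. DESeq2 called 75 members for 10 against 5 weeks (13.4% of tested IDs), 154 for 7 against 5 weeks (6%) and 2 for 14 against 10 weeks (1.41%). There edgeR called 0 members, with 6.61%, 1.38% and 0% of tested IDs called. Without 1 library edgeR called 0 members for 10 or 7 against 5 weeks, and 0 to 1 for 14 against 10 weeks. In these fits it called 81 to 2048 of all tested IDs for 10 against 5 weeks and 19 to 323 for 7 against 5. For 14 against 10 weeks it called 0 to 514, with 514 in the fit that called 1 member. The next alternatives were chosen after the data were seen. Without both 5 weeks replicates 4 and 5, 12 members were called over the 4 ages, where 4925 of 19682 IDs were called. Between 14 and 5 weeks 5 members were called there, of 1478 IDs called. Without both 14 weeks replicates 3 and 4, 158 members were called over the 4 ages, where 5392 of 19357 IDs were called. For 10 against 5 weeks 34 members were called there, of 2527 IDs called. For 7 against 5 weeks 59 were, of 775. Without both 14 weeks replicates 3 and 4 the log2 fold change at 14 against 5 weeks was 1.98 for Nfu_g_1_002463 and 0.93 for Nfu_g_1_019046. With all libraries it was 8.77 and 7.60. The sign of this difference was fixed by the selection of the genes. No paired analysis was possible because the labels give no replicate numbers that link libraries. Levels in the low libraries are imprecise, as a member rests on few reads there.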
